A study of Homo sapiens with 4 samples.

Results

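Mitochondrial ribosomal protein genes are the nuclear genes that encode the protein part of the ribosome inside mitochondria. They were taken as the RefSeq protein-coding genes of GRCh38 whose symbol is MRPL or MRPS followed by a number, which gave 77 of the 19974 protein-coding genes on chromosomes 1 to 22 and X. Of these, 49 were MRPL genes, named for the large subunit, and 28 were MRPS genes, named for the small subunit. Chromatin immunoprecipitation and sequencing (ChIP-seq) had been done in the human prostate cancer line DU145, which is long established in culture, for Flag-tagged ATOH8 and for Myc-tagged TCF3, each with an input library. There were 4 libraries in all, 1 per group, after fixation with 1% formaldehyde for 10 min. The labels give no treatment, and they do not say how the tagged proteins were expressed. The question asked here is which mitochondrial ribosomal protein genes had a listed peak of either factor near a gene end, and where those peaks lay.

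The mitochondrial ribosome translates the few proteins encoded by mitochondrial DNA, all of them subunits of the respiratory chain and the ATP synthase. Its RNAs are made in the organelle, but all its proteins are made in the cytosol from nuclear genes and imported. Some of these proteins have counterparts in bacterial ribosomes and others are specific to mitochondria. ATOH8 and TCF3 are basic helix-loop-helix factors, a class that binds E-boxes, short DNA words of the form CANNTG. TCF3 is an E protein, the broadly expressed kind of partner in such dimers.

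A gene was counted for a factor when the midpoint of a peak lay within 5 kb of either end of the gene. The lists held 4997 ATOH8 and 11390 TCF3 peaks, with scores of 51 to 8846 and 35 to 19871. The score is the authors' own value and was compared only within a list. The lists may not be complete: no ATOH8 score lay between 356 and 996 and no TCF3 score between 280 and 887, and in each list a line without a complete peak stood at that place. Whether peaks are missing there was not tested, and a gene with no listed peak was not taken as unbound. Read depth is unknown, and with 1 library per factor no peak has a replicate error and no test between conditions was possible. Intervals on shares are exact (Clopper-Pearson) 95% binomial intervals and cover the counting of genes only.

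An ATOH8 peak covered the whole 250 bases before the start site of 6 genes. The sequences of 5 of them are shown, with or without an E-box; the sixth, MRPL46, shares most of its stretch with MRPS11. Each is the 250 bases before the RefSeq start site, written 5′ to 3′ on the strand of the gene with E-boxes in capitals. MRPL40 lies at chr22:19432295-19432544 (plus strand), MRPS11 at chr15:88467458-88467707 (plus strand), MRPL38 at chr17:75904885-75905134 (minus strand), MRPL58 at chr17:75012420-75012669 (plus strand) and MRPL55 at chr1:228109300-228109549 (minus strand), all on GRCh38.p14.
MRPL40: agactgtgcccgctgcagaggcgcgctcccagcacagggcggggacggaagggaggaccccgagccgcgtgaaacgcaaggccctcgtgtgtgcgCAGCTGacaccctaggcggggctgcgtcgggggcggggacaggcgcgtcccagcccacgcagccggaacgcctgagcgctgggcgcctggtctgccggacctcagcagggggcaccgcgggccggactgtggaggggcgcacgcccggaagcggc
MRPS11: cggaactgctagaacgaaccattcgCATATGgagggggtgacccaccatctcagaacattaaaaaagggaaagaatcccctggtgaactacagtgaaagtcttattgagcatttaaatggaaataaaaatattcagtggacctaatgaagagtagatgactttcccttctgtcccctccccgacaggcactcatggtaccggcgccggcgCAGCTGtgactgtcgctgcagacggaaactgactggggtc
MRPL38: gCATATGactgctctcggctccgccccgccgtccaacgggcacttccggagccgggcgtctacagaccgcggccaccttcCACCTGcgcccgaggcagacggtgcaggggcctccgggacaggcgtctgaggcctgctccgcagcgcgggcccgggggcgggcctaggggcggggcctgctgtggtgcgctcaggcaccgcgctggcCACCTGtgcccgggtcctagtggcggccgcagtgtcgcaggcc
MRPL58: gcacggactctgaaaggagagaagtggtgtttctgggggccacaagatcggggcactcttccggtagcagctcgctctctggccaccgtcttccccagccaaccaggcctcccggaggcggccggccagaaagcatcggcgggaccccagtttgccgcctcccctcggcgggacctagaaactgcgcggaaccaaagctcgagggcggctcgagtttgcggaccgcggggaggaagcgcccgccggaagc
MRPL55: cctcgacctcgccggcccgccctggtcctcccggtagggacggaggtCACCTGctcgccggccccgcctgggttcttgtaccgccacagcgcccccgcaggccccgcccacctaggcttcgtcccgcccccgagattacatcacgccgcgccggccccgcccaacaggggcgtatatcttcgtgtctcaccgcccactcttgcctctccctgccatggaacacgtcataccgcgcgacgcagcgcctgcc
The word in MRPL40 is CAGCTG, and a TCF3 peak covered the first 78 of these bases but not the word. MRPS11 has CATATG and CAGCTG, MRPL38 has CATATG and CACCTG at 2 places, and MRPL55 has CACCTG. This last word is CAGGTG read on the other strand. MRPL58 has no E-box in these bases.

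ATOH8 peaks were listed at 20 of the 77 genes (26.0%, interval 16.6 to 37.2%), against 22.7% of all protein-coding genes. TCF3 peaks were listed at 15 of the 77 (19.5%, 11.3 to 30.1%), against 28.5% of all protein-coding genes. Both intervals include the share of all genes under this rule. For TCF3 the share of all genes fell outside the interval when any base of a peak within 5 kb of the gene counted (16 genes, 20.8%, 12.4 to 31.5%, against 33.2%). It did so too when a peak counted only where no other gene end was nearer, a setting chosen after seeing the data (8 genes, 10.4%, 4.59 to 19.4%, against 23.8%). The TCF3 list is longer than the ATOH8 list, so the shares of the factors were not compared with each other: with the TCF3 list cut to as many peaks, TCF3 was listed at 14.7% of all genes and 9.09% of the mitochondrial ribosomal protein genes. Either factor was listed at 26 genes (33.8%, 23.4 to 45.4%), against 41.5% of all genes. The remaining 51 genes had neither.

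**Figure D1:**
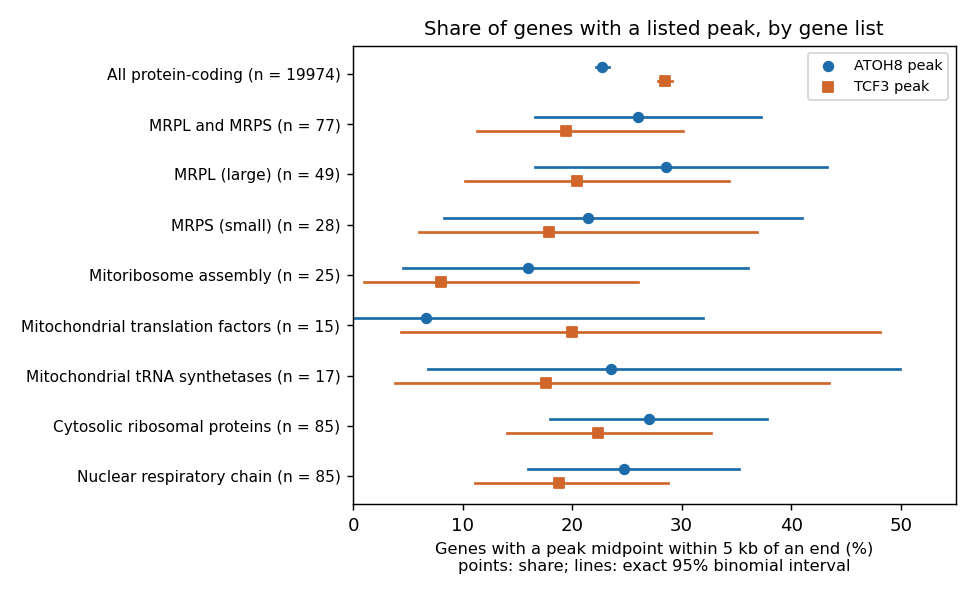
Share of genes with a listed peak midpoint within 5 kb of a gene end (horizontal axis, percent) for each gene list (rows, with the number of genes), ATOH8 as circles and TCF3 as squares, with exact 95% binomial intervals as lines. Among the 77 MRPL and MRPS genes the points are 26.0% for ATOH8 and 19.5% for TCF3, against 22.7% and 28.5% of all protein-coding genes.

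By subunit, ATOH8 peaks were at 14 of 49 MRPL genes (28.6%, 16.6 to 43.3%) and at 6 of 28 MRPS genes (21.4%, 8.30 to 41.0%). TCF3 peaks were at 10 of 49 MRPL genes (20.4%, 10.2 to 34.3%) and at 5 of 28 MRPS genes (17.9%, 6.06 to 36.9%). The intervals of the subunits overlapped widely for each factor. MRPS18A and MRPS30 carry small subunit symbols although their proteins sit in the large subunit. Counting them there gave 15 of 51 and 11 of 51 genes for the large subunit. The genes were also grouped by the protein names in RefSeq, which give a bacterial counterpart or mark the protein as mitochondria-specific. Descent itself was not examined. ATOH8 was listed at 12 of the 46 genes with a bacterial counterpart (26.1%) and at 8 of the 31 mitochondria-specific genes (25.8%), against 22.7% of all genes. For TCF3 the corresponding counts were 8 of 46 (17.4%) and 7 of 31 (22.6%), against 28.5%.

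Peaks of both factors were listed at 9 genes (11.7%, 5.49 to 21.0%), against 9.74% of all genes. These were MRPL36, MRPL38, MRPL40, MRPL41, MRPL49 and MRPL55 of the large subunit and MRPS28, MRPS30 and MRPS34 by small subunit symbol. Of the 9, 6 encode mitochondria-specific proteins, 19.4% of the 31 such genes (interval 7.45 to 37.5%). The other 3 (MRPL36, MRPL55 and MRPS28) have a bacterial counterpart, 6.52% of 46 genes (1.37 to 17.9%). Both intervals include the 9.74% of all genes. At 7 of the 9 genes an ATOH8 and a TCF3 peak shared at least 1 base (9.09%, 3.73 to 17.8%), against 7.67% of all genes. MRPS28 and MRPS34 were the exceptions. ATOH8 without TCF3 was listed at 11 genes (14.3%, 7.35 to 24.1%), against 13.0% of all genes. TCF3 without ATOH8 was listed at 6 genes (7.79%, 2.91 to 16.2%), and the 18.7% of all genes lies above that interval.

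**Figure D2:**
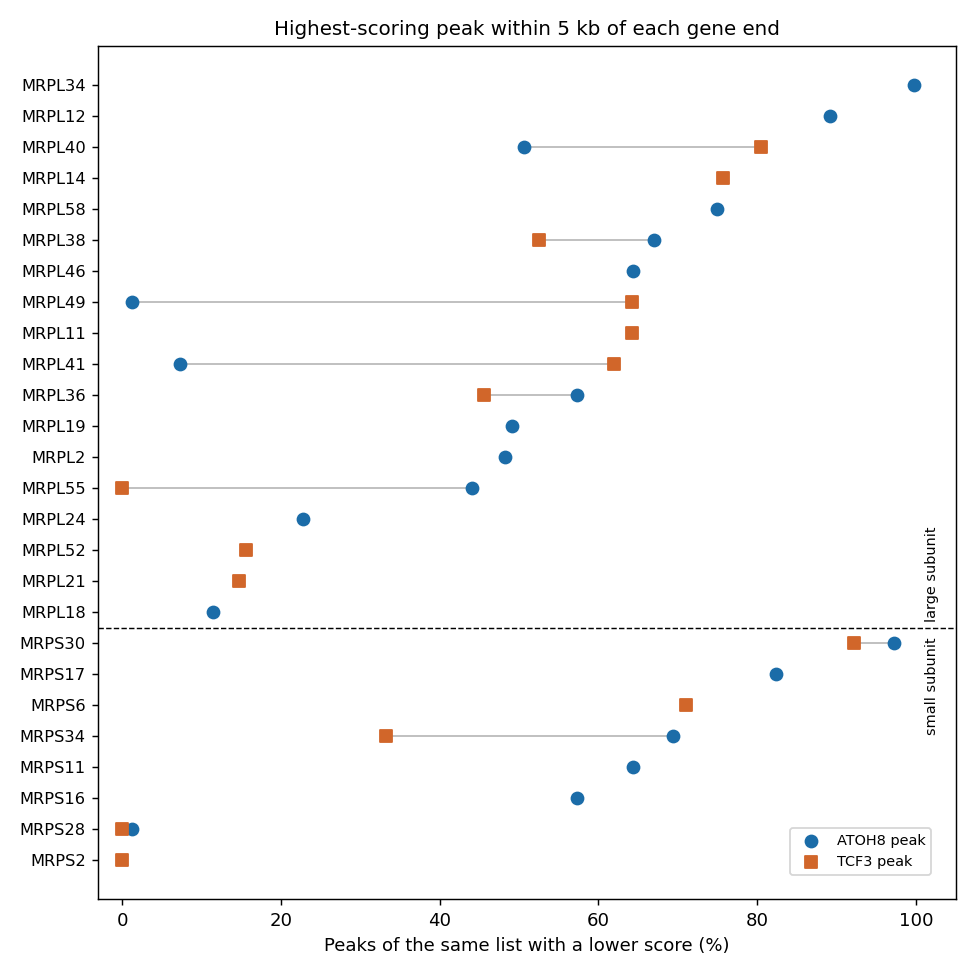
Highest-scoring peak within 5 kb of an end of each of the 26 genes with a listed peak, placed by the share of the same factor's list that scored lower (horizontal axis, percent), ATOH8 as circles and TCF3 as squares, joined by a line where a gene has both. MRPL34 lies furthest right for ATOH8 (99.7%), MRPS30 for TCF3 (92.2%), and the peaks of the other genes spread over the whole range.

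In the large subunit the highest ATOH8 score belonged to MRPL34, which encodes the counterpart of a small bacterial protein of the same number. MRPL34 (chr19:17292573-17306843, plus strand) held a 404 bp ATOH8 peak at chr19:17305273-17305677 with a score of 1202, above 99.7% of the list and 14th from the top. That peak lay 1368 bp inside the far end of the gene and 12902 bp downstream of the start site, with ABHD8 and DDA1 also within 5 kb. The other ATOH8 peak in MRPL34 (score 160) was 3597 bp from the far end of the gene and 179 bp from an end of ABHD8. The nearest TCF3 midpoint to MRPL34 was 664396 bp away.

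MRPL12, whose product forms the stalk of the large subunit and also binds the mitochondrial RNA polymerase, had an ATOH8 peak with a score of 160 at chr17:81711802-81713153. It lay close to the 5 kb limit, 4960 bp beyond the far end of MRPL12, and only 193 bp from an end of SLC25A10, the gene of a mitochondrial dicarboxylate carrier. The nearest TCF3 midpoint was 5157 bp from MRPL12, just outside the limit. MRPL58 encodes a peptidyl-tRNA hydrolase that is built into the large subunit and rescues stalled ribosomes. Its ATOH8 peak (chr17:75012394-75013016, score 120, above 75.0% of the list) had its midpoint 35 bp downstream of the start site and no other protein-coding gene within 5 kb.

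MRPL38 and MRPL46 encode mitochondria-specific proteins of the large subunit. MRPL38 had ATOH8 peaks at both ends: one with a score of 106 centred 150 bp upstream of its start site and one with a score of 94 beyond its far end, 290 bp from TRIM65, a ubiquitin ligase gene. FBF1 lay within 5 kb of the ATOH8 peak at the start site. The TCF3 peak of MRPL38 (score 63) overlapped the ATOH8 peak at TRIM65 by 404 bp, not the one at the start site. MRPL46 shares its promoter region with MRPS11, which encodes a small subunit protein with a bacterial counterpart: their start sites are 320 bp apart on opposite strands. One ATOH8 peak, at chr15:88467160-88468254 with a score of 102, covered both starts. It accounts for 1 gene of each subunit, and the nearest TCF3 midpoints were 137652 bp from MRPL46 and 124264 bp from MRPS11.

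MRPL40 and MRPL41 had overlapping peaks of the factors beside the start site. In MRPL40 (chr22:19432545-19436075, plus strand) the ATOH8 peak scored 86, above 50.7% of its list, and the TCF3 peak scored 102, above 80.5% of its list. The 2 peaks shared 1166 bp, the whole TCF3 peak. Their midpoints were 676 and 756 bp upstream of MRPL40, but 136 and 56 bp from HIRA, a histone chaperone gene that starts on the other strand. In MRPL41 (chr9:137551879-137552555, plus strand), the shortest gene of the 77 at 677 bp, the ATOH8 peak scored 55 and the TCF3 peak 73. Both began at 137551914, inside the gene, with midpoints 193 and 219 bp after the start site. DPH7 and PNPLA7 also lay within 5 kb of each peak. The ATOH8 score in MRPL41 was above only 7.30% of its list, whereas the TCF3 score was above 61.9%.

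The overlapping peaks of MRPL36, MRPL49 and MRPL55 lay within 1 kb of another gene. In MRPL36 the peaks (ATOH8 score 93, TCF3 score 61) shared 426 bp at the higher-coordinate end of the gene. Their midpoints were 42 and 180 bp from that end and 69 and 207 bp from the start of NDUFS6, a complex I subunit gene. A further TCF3 peak (score 44) lay inside MRPL36, 276 bp after its own start site. For MRPL49 the midpoints were 4919 bp (ATOH8, score 52) and 4915 bp (TCF3, score 79) upstream of the start, only 4 bp apart and near ZNHIT2, at 437 and 433 bp. MRPL55 had a weak ATOH8 peak (score 56) over its own start and another (score 77) that overlapped a TCF3 peak (score 36) by 365 bp near C1orf35.

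Of the other large subunit genes, MRPL19 had an ATOH8 peak (score 84) 291 bp after its start site and no other protein-coding gene within 5 kb. MRPL2 (score 81) shared its ATOH8 peak with CUL7, MRPL18 (score 57) with TCP1 and MRPL24 (score 63, 4083 bp away) with HDGF. TCF3 alone was listed at MRPL14 (score 92, 873 bp upstream of the start site), MRPL11 (score 79, 2242 bp upstream), MRPL52 (score 43) and MRPL21 (score 38). MRPL14 and MRPL11 encode counterparts of bacterial proteins. TMEM63B lay within 5 kb of the MRPL14 peak, while the MRPL11 peak had no other protein-coding gene within 5 kb. The MRPL52 peak was 233 bp from MMP14, a matrix metalloprotease gene, and the MRPL21 peak 276 bp from IGHMBP2. Just outside the limit lay the TCF3 midpoints nearest to MRPL44 (5737 bp) and MRPL9 (5929 bp). None of the 57 genes without an ATOH8 peak had its nearest ATOH8 midpoint between 5 and 6 kb away.

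Among the genes with small subunit symbols, MRPS30, whose protein sits in the large subunit, had the highest score for each factor. Among those whose proteins sit in the small subunit, the highest scores were 137 for ATOH8 (MRPS17) and 89 for TCF3 (MRPS6). MRPS30 (chr5:44808947-44815514, plus strand) held an ATOH8 peak at chr5:44808933-44809654 with a score of 259, above 97.3% of the list, and a TCF3 peak at chr5:44808981-44809546 with a score of 154, above 92.2%. The TCF3 peak lay wholly within the ATOH8 peak, and the midpoints were 346 and 316 bp after the start site. No other protein-coding gene lay within 5 kb. It was the only one of the 9 genes with both factors whose every peak was free of a neighbouring protein-coding gene at that distance. Only protein-coding neighbours were counted, and MRPS30-DT, which is not among them, lay within the 250 bases before the start site.

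MRPS17, the gene of a small subunit protein with a bacterial counterpart, had an ATOH8 peak at chr7:55951863-55952320 with a score of 137, above 82.3% of the list. MRPS17 again had no protein-coding neighbour within 5 kb of its peak. Its nearest TCF3 midpoint was 159715 bp away. MRPS34, which encodes a mitochondria-specific protein of the small subunit, had separate peaks: the ATOH8 peak (score 109) was 142 bp beyond its far end and the TCF3 peak (score 52) covered its start site, with EME2, MAPK8IP3, NME3 and SPSB3 within 5 kb. MRPS16 had an ATOH8 peak (score 93) 173 bp from DNAJC9, the gene of a histone co-chaperone. MRPS28, the longest gene of the 77 at 111543 bp, had a low-scoring peak of each factor (52 for ATOH8 and 36 for TCF3) that did not overlap.

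TCF3 alone was listed at MRPS6 and MRPS2, whose products also have bacterial counterparts. MRPS6 had 2 TCF3 peaks, with scores of 89 and 52, on either side of its start site at 392 bp after and 591 bp before it. SLC5A3, a myo-inositol transporter gene, has its annotated start site at the same base as MRPS6 and lay within 5 kb of each peak. The TCF3 peak in MRPS2 had a score of 36, next to the lowest of the list, and PIERCE1 lay within 5 kb of it.

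The 22 distinct ATOH8 peaks had a median score of 93 (range 52 to 1202), and 13 of them (59.1%) were above the median of the whole list, 84. Over all 3791 ATOH8 peaks within 5 kb of a gene end the median was 86, and 51.1% were above the median of the whole list. The 17 TCF3 peaks had a median score of 61 (36 to 154), against 66 for all 5532 TCF3 gene-end peaks, and 8 (47.1%) were above the median of the whole list against 52.3%. Widths had a median of 717.5 bp for ATOH8 and 484 bp for TCF3, against 735 and 751 bp for all gene-end peaks. The median TCF3 peak at these genes was narrower than that of all gene ends, a difference that was not tested.

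Most of these peaks also lay near another gene. For ATOH8, 15 of the 20 genes had no peak free of another protein-coding gene within 5 kb, against 43.7% of all genes with an ATOH8 peak. For TCF3 this held for 13 of 15 genes, against 35.8%. At 13 genes an ATOH8 peak had no other gene end nearer than the member's own (16.9%, against 18.0% of all genes). The same held for TCF3 at 8 genes (10.4%, against 23.8%). These include MRPS6, whose start site is also that of SLC5A3. Which of the neighbouring genes a peak belongs to cannot be told apart from distance. Among the 77 genes, those with an ATOH8 peak had a median length of 5624.5 bp and those without 12343 bp. For TCF3 the medians were 5151 and 10727 bp. The same split was not made over all genes, and the difference in length was not tested.

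Relative to the start site, known for 69 of the 77 genes, an ATOH8 midpoint lay within 1 kb at 11 genes (15.9%, 8.24 to 26.7%), against 17.7% of the 15812 protein-coding genes with a known start. The genes were MRPL18, MRPL19, MRPL38, MRPL40, MRPL41, MRPL46, MRPL55, MRPL58, MRPS11, MRPS17 and MRPS30. TCF3 peaks did so at 8 genes (11.6%, 5.14 to 21.6%), against 19.3%: MRPL14, MRPL36, MRPL40, MRPL41, MRPS2, MRPS6, MRPS30 and MRPS34. Pairs of a gene and a peak were also sorted by the annotated ends of the gene, not by the start site. Of 23 ATOH8 pairs, 14 were nearer the start end, 7 were nearer the far end and 2 had no known strand. The peak covered the start site in 8 of the 23 pairs. For TCF3, 11 of 17 pairs were nearer the start end, and only the peak at MRPS34 covered the start site. The TCF3 peak inside MRPL36 counted as nearer the far end (1176 bp), although its midpoint lay 276 bp after the start site. Pairs were not counted over all genes, so these values have no background beside them.

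**Figure D3:**
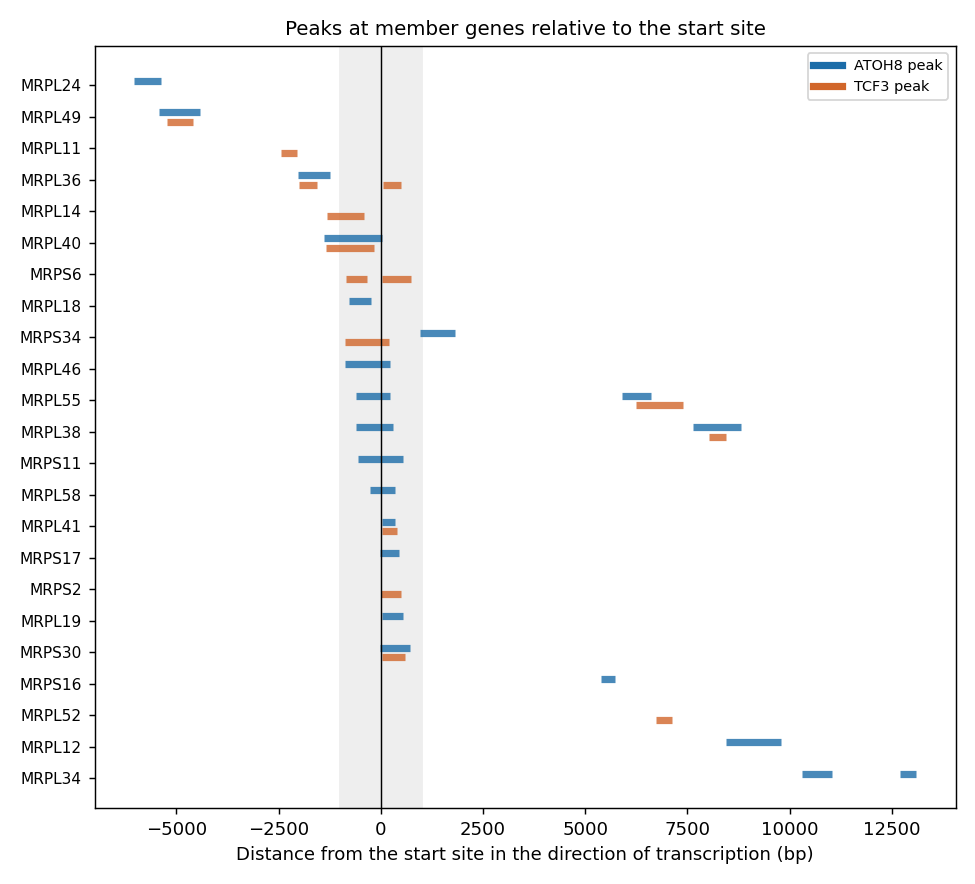
Listed peaks at the genes with a known start site, drawn as bars of their true width along the distance from the start site in the direction of transcription (horizontal axis, bp), ATOH8 above TCF3 in each row; the grey band marks 1 kb on either side of the start. Many bars lie in the grey band, while MRPL12, MRPL24, MRPL34, MRPL38, MRPL49, MRPL52, MRPL55 and MRPS16 each have a bar centred over 4 kb from the start.

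The 51 genes with neither peak (66.2%, 54.6 to 76.6%, against 58.5% of all genes) included 31 MRPL and 20 MRPS genes. All 8 genes on chromosome 2 except MRPL19 were among them, as were all 4 on chromosome 3 and all 3 on chromosome 12. So were the 2 on chromosome 4, the 2 on chromosome 13 and the 1 on chromosome 20. These counts are small, and the shares of all genes were not counted by chromosome. For ATOH8, the median distance from the 57 genes without a peak to the nearest listed midpoint was 63820 bp, and 22 of them were over 100 kb away. For TCF3 the median over 62 genes was 60838 bp. The furthest from any ATOH8 midpoint was MRPS22, at 1874907 bp.

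Genes that act with the mitochondrial ribosome were counted in the same way. Among 25 assembly factors, ATOH8 was listed at 4 (DHX30, an RNA helicase, MTG2, RBFA and RCC1L) and TCF3 at 2 (MTG1 and NGRN), with none shared. Among 15 translation factors ATOH8 was listed at 1 (MRRF, the ribosome recycling factor) and TCF3 at 3 (LRPPRC, MTFMT and MTRF1L). Of 17 mitochondrial tRNA synthetase genes, 4 had ATOH8 (CARS2, EARS2, IARS2 and YARS2) and 3 had TCF3 (AARS2, CARS2 and VARS2), so that CARS2 had both. Of 5 subunits with other symbols, only DAP3 was listed, for ATOH8. These lists are small, and each of their intervals includes the background of the factor except that for TCF3 at the assembly factors, where 8.0% (0.984 to 26.0%) stands against 28.5% of all genes.

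The cytosolic ribosomal protein genes and the nuclear genes of the respiratory chain had similar point values. The respiratory chain list included the ATP synthase genes. NDUFS6, which lies near the peaks of MRPL36, was counted in that list for each factor. ATOH8 was listed at 23 of 85 cytosolic ribosomal protein genes (27.1%, 18.0 to 37.8%) and at 21 of 85 respiratory chain genes (24.7%, 16.0 to 35.3%). TCF3 was listed at 19 of 85 (22.4%, 14.0 to 32.7%) and at 16 of 85 (18.8%, 11.2 to 28.8%). For each factor the intervals of these 2 lists overlapped that of the mitochondrial ribosomal protein genes.

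The 300-base promoter windows, from 250 bases before to 50 after the start site, were searched for short words on both strands in the 69 genes that had one. Any E-box (CANNTG) was in 42 of 69 windows (60.9%), against 64.5% of the 15812 windows of all genes. CAGCTG was in 10.1% against 17.7%, CAGGTG in 18.8% against 19.9%, CACGTG in 8.70% against 8.87% and CATCTG in 1.45% against 11.7%; all 4 are also matches of CANNTG. The 7-letter word CCGGAAG, the core bound by ETS factors, was in 29 of 69 windows (42.0%), against 14.2% of all genes, 33.8% of cytosolic ribosomal protein genes and 29.4% of respiratory chain genes. The 8-letter core GCATGCGC of the site of NRF1, a regulator of nuclear genes for mitochondrial proteins, was in 6 of 69 windows (8.70%), against 4.26% of all genes and 19.1% of respiratory chain genes. The same core with GC in front was in 1 window (1.45%), against 1.76% of all genes. Median GC content was 60.3% in these windows and 62.7% in all.

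**Figure D4:**
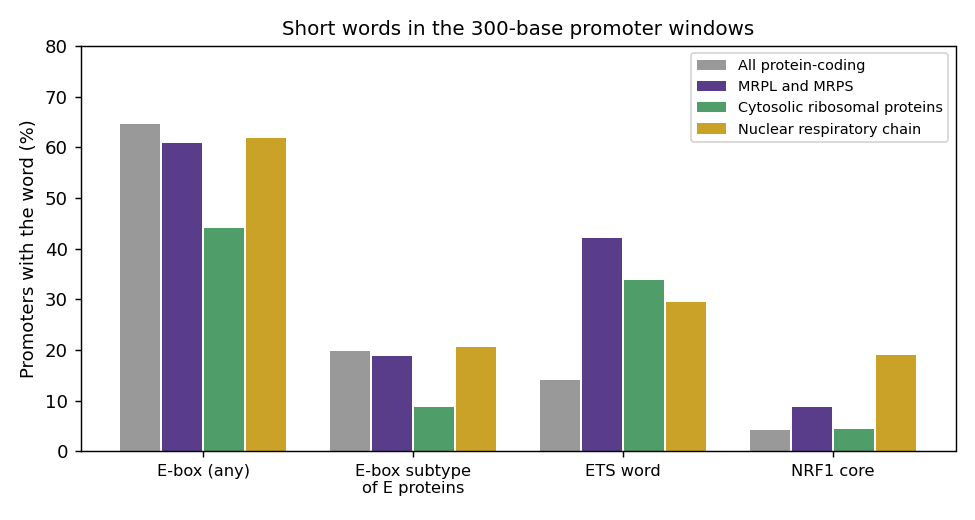
Share of 300-base promoter windows (vertical axis, percent) that hold each short word on either strand, for all protein-coding genes, the MRPL and MRPS genes, cytosolic ribosomal protein genes and nuclear respiratory chain genes. The MRPL and MRPS bar for the ETS word stands at 42.0% against 14.2% for all genes, while their bars for E-boxes lie at or under those of all genes.

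The ETS word was in a smaller share of the member windows with an ATOH8 peak near the start than of the others, on small counts and with no test. It was in 3 of the 11 windows with an ATOH8 midpoint within 1 kb of the start (27.3%) and in 26 of the other 58 (44.8%). Over all genes the order was opposite, with 17.4% and 13.5%. As examples, 3 genes with no peak of either factor and with the word at 2 places in the 150 bases before the start site are shown, with the word in capitals, 5′ to 3′ on the strand of the gene. MRPL20 lies at chr1:1407294-1407443 (minus strand), MRPL51 at chr12:6493263-6493412 (minus strand) and MRPS22 at chr3:139343844-139343993 (plus strand), on GRCh38.p14. The word reads CTTCCGG on the other strand.
MRPL20: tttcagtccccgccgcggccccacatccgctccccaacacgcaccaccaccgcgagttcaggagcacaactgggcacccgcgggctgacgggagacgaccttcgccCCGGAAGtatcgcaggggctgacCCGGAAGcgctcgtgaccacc
MRPL51: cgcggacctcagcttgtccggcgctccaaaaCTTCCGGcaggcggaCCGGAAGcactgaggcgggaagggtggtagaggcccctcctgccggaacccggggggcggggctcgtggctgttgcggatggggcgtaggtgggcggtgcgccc
MRPS22: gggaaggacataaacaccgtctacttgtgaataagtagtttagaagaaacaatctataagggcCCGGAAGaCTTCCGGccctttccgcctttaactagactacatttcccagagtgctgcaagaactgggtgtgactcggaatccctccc

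CAGGTG was in 5 of the 11 windows of members with an ATOH8 midpoint within 1 kb of the start (45.5%) and in 8 of the other 58 (13.8%). Over all genes the shares were 24.7% with and 18.9% without such a peak. The 5 genes were MRPL38, MRPL55, MRPL58, MRPS17 and MRPS30. Of the 8 windows with a TCF3 midpoint within 1 kb, 1 held the word (12.5%), that of MRPS30, against 20.2% of all such windows. CAGGTG was 1 of several words split this way, on small counts and with no test. In the 11 windows and the other 58, CAGCTG was in 18.2% and 8.62% (all genes: 21.0% with and 17.0% without such a peak). CACGTG was in 0% and 10.3% (11.3% and 8.35%) and CATCTG in 0% and 1.72% (7.67% and 12.5%). Median GC content was 63.0% in the 11 windows and 60.3% in the other 58, and over all genes 69.7% with and 61.0% without an ATOH8 peak. The part of GC content in the CAGGTG difference was not tested.

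In 3 of the 5 genes the word began at nearly the same distance after the start site: base 28 of MRPS30 and base 29 of MRPS17 and MRPL58, with the start site as base 1. These 3 were also the only members with CAGGTG after the start: 3 of 69 windows (4.35%), against 3.31% of all 15812, and 3 of the 11 with an ATOH8 midpoint within 1 kb, against 4.53% of all such windows. The words lie at chr5:44808974-44808979 (MRPS30), chr7:55951905-55951910 (MRPS17) and chr17:75012698-75012703 (MRPL58), each on the plus strand and inside the ATOH8 peak of the gene. They are shown with 10 bases on either side and the word in capitals.
MRPS30: tggcggcggcCAGGTGttggaggcct
MRPS17: ctccccggggCAGGTGgctgcatagt
MRPL58: tggcggccacCAGGTGcctgcgctgg
These 3 genes had ATOH8 scores of 259, 137 and 120, and none of their ATOH8 peaks lay within 5 kb of another protein-coding gene. Only MRPS30 had a TCF3 peak, which began at 44808981, past the word. In MRPL55 the word began at -203 relative to the start site and in MRPL38 at -170 and -43. The position of the word was looked at after its share was known, so it is a description of these 5 genes.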

How the data were processed

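For each factor (ATOH8 by its Flag tag, TCF3 by its Myc tag), the ChIP-seq peak list of 1 library from DU145 cells was analysed. The deposited score of each peak is the authors' own value. Per the submitters' processing notes the build is hg38, and positions are printed as listed. Not given in the sources used here: aligner, caller and threshold, what the score measures, how the input was used, and whether positions count from 0 or 1. Input libraries were not analysed here.

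Gene ends came from RefSeq GRCh38.p14 on chromosomes 1 to 22 and X. Start sites, strands and 300-base promoter sequences came from the RefSeq promoter table of that build, which matched 69 of the 77 genes; the others (MRPL2, MRPL10, MRPL13, MRPL15, MRPL21, MRPL23, MRPL35 and MRPS28) were left out of those counts. Each upstream sequence ends at the base before the start site. Genes were called bacterial counterparts or mitochondria-specific by the protein names in RefSeq (MRPS24 and MRPS28 from a hand-made list). A peak was assigned by its midpoint, and overlap meant at least 1 shared base. Genes named are those with both factors, the 10 highest-scoring per factor and those within 1 kb of the 5 kb limit; MRPL2, MRPL18, MRPL19, MRPL21, MRPL52 and MRPS2 complete the account.

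The members and lists were chosen with earlier results of these data known. The counts near start sites, the shared neighbours, the 8-letter NRF1 core, the divergent starts and the place of CAGGTG were chosen after seeing the data. No tests were made. The counting was tested on simulated peaks. Tools were Python 3.11.15, pandas 2.3.3, numpy 2.4.6, scipy 1.17.1 (intervals) and matplotlib 3.10.9 (figures).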

Additional observations from a re-analysis of the deposited data

How the results depend on the processing

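Against 20 ATOH8, 15 TCF3 and 9 shared genes, 19 of 32 recomputed counts stayed within 1.5 times the count reported. A window of 1 kb gave 9 TCF3 genes (11.7%, against 20.3% of all genes), 5 of them MRPL genes (10.2% of 49). It gave 5 genes with both factors (6.49% against 6.11%). A window of 20 kb gave 26 TCF3 genes (33.8%, against 40.0% of all genes). The higher-scoring 50% of each list holds fewer peaks by construction. It gave 12 ATOH8 genes (15.6%, against 12.3% of all genes), 9 TCF3 genes (11.7% against 16.7%) and 4 with both (5.19% against 3.40%). By subunit this left 7 of 49 MRPL genes for ATOH8 (14.3%) and 2 of 28 MRPS genes for TCF3 (7.14%). Cutting the TCF3 list to as many peaks as the ATOH8 list gave 7 TCF3 genes (9.09% against 14.7%) and 4 with both (5.19% against 5.27%). Counting a peak only where no other gene end was nearer, an alternative chosen after seeing the data, gave 13 ATOH8 genes (16.9% against 18.0%) and 8 TCF3 genes (10.4% against 23.8%). The share of all genes fell outside the interval for TCF3 in that last setting and when any base of a peak within 5 kb counted (16 genes, 20.8% against 33.2%). The TCF3 point value was below its share of all genes under each of these settings, while ATOH8 lay above its share in some and below in others. If peaks are missing at the gaps in scores, genes may be missing from every count; this was not tested. No paired analysis was possible because each group has 1 library.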

Other observations

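Start sites that face away from a neighbour's start within 1 kb, on the opposite strand, were found at 18 of 69 mitochondrial ribosomal protein genes (26.1%), against 10.3% of all 15812 genes with a known start. The partners included genes of other large complexes: PSMA2, a proteasome subunit gene, 202 bp from MRPL32, TCP1, a chaperonin subunit gene, 210 bp from MRPL18, and FAU, which encodes a cytosolic ribosomal protein as a fusion, 49 bp from MRPL49. MRPS12 faced SARS2, the mitochondrial seryl-tRNA synthetase gene, at 181 bp. ATOH8 peaks were listed at 5 of the 18 genes and at 13 of the other 51 with a known start, and TCF3 peaks at 3 and 10. Over all 19974 protein-coding genes the shares were 22.7% for ATOH8 and 28.5% for TCF3. Those shares were not split by divergent start, and the small counts were not tested. The share of divergent starts is a property of the annotation, not of the libraries.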
